A study of Mus musculus with 2 samples.

Results

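The genes described here are the protein-coding mouse genes whose symbol is Zfp plus a number and that lie on chromosomes 7, 13 and 17, Zfp143 excepted. There were 160 of them among 21938 protein-coding genes of GENCODE vM21: 88 on chromosome 7, 31 on chromosome 13 and 41 on chromosome 17. The rule used symbol and chromosome and no measured value. Binding of CTCF to these genes was read from chromatin immunoprecipitation with sequencing (ChIP-seq) on liver of B6NCrl mouse embryos at day 14.5. Pulverised livers of males and females from multiple dissections were mixed, and the 2 libraries came from this 1 biosample. They form 1 group, with no second tissue, age or genotype to compare, so errors between replicates may cover library making and sequencing only. In such bulk tissue, binding in fewer cells and weaker binding per cell cannot be told apart.

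Most genes of this family encode proteins with tandem C2H2 zinc fingers, small folds that each hold a zinc ion and together read a DNA sequence. They spread by tandem duplication, so that near copies stand side by side in clusters, and the fingers are usually encoded by the long last exon. Many carry a KRAB domain, which recruits the corepressor TRIM28, and silence transposable elements. CTCF is itself a C2H2 zinc finger protein; it binds insulators and anchors of chromatin loops, where the orientation of its motif matters. In the translated coding sequences, 152 of the 160 genes had 3 or more C2H2 fingers and 158 had at least 1. The most fingers, 33, were in Zfp619. No finger was found in Zfp935 or in Zfp36, which encodes the mRNA decay factor tristetraprolin and is known for fingers of another type.

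The authors' optimal list, thresholded for reproducibility between replicates, held 50909 peaks with a median signal of 68.0, of which 50888 were on chromosomes and were used. The signal is the value deposited for each peak, on a scale that is not stated. The list of each replicate held 300000 peaks. The number of reads is unknown. For an error between replicates, each measurement was repeated on the 50909 strongest peaks of each replicate. A relative signal is the signal of a replicate's own peak within 100 bp, divided by the median over that replicate's strongest peaks, so that 1 is an ordinary strong peak.

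The core CTCF motif, 14 bases long, was searched on both strands within 50 bp of each summit with at most 2 mismatches. It was found at 70.8% of all optimal summits and at 46.1% of those within 1 kb of a protein-coding start. The stretches below hold the matches at 4 of the strongest start summits, at 2 summits in last exons and at the 2 strongest summits between clustered genes. They are from mm10, 5′ to 3′ on the strand of the motif, and capitals mark the bases matched.
Zfp523 start, chr17:28204509-28204538, plus strand: cttcatcaCCAACAGGTGGCGCtgttggcc
Zfp598 start, chr17:24676350-24676379, minus strand: caggctctCCACCAGGAGGCAGtcatgctt
Zfp74 start, chr7:29954919-29954948, plus strand: cagagagaCCAGAAGGGGGCATccgattcc
Zfp54 start, chr17:21422766-21422795, minus strand: ggctttcaCCACTAGATGGTGGtcttgcca
Zfp975 last exon, chr7:42660332-42660361, minus strand: atgtgccgCCACTAGATGGTGCtaaacctc
Zfp524 last exon, chr7:5017569-5017598, plus strand: gaggccgaCCTCCAGGGGGAGCcaccacct
Zfp94 to Zfp428, chr7:24441949-24441978, plus strand: taccccagCCACTAGGGAGCAGcagctgaa
Zfp94 to Zfp428, chr7:24364949-24364978, plus strand: caaaatgaCCACCAGGTGGGAGtcttccaa
The Zfp523, Zfp598, Zfp54 and Zfp975 matches and both between Zfp94 and Zfp428 had 1 mismatch to the motif, and those at Zfp74 and Zfp524 had 2.

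A CTCF summit lay within 1 kb of an annotated start in 65 of the 160 zinc finger genes, 40.6% (Wilson 95% interval 33.3 to 48.4, counting error only). For all protein-coding genes this figure was 35.2%. In the strongest peaks of replicate 1 the share of the zinc finger genes was 44.4%, and in those of replicate 2 it was 37.5%, a mean of 40.9% ± 4.86 (SD, n = 2). Replicate 1 was also higher over all protein-coding genes, at 39.4% against 31.7%. Within each replicate the zinc finger genes stood above all genes, by less than the width of their counting interval. The other protein-coding genes of the same chromosomes had a summit in 32.7%, the Zfp genes of other chromosomes in 37.7% (77 of 204) and other genes with 3 or more fingers in 34.9% (171 of 490). The interval of the zinc finger genes covers all of these values except 32.7%. By chromosome, 37 of 88 genes had a start summit on chromosome 7, 11 of 31 on chromosome 13 and 17 of 41 on chromosome 17. In clusters of at least 3 members, each within 200 kb of the next, 44 of 113 genes (38.9%) had one, and outside clusters 21 of 47 (44.7%), with intervals of 30.5 to 48.2 and 31.4 to 58.8 that overlap. No start summit was found at Zfp57, whose protein is known to keep the methylation of imprinted loci.

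**Figure D1:**
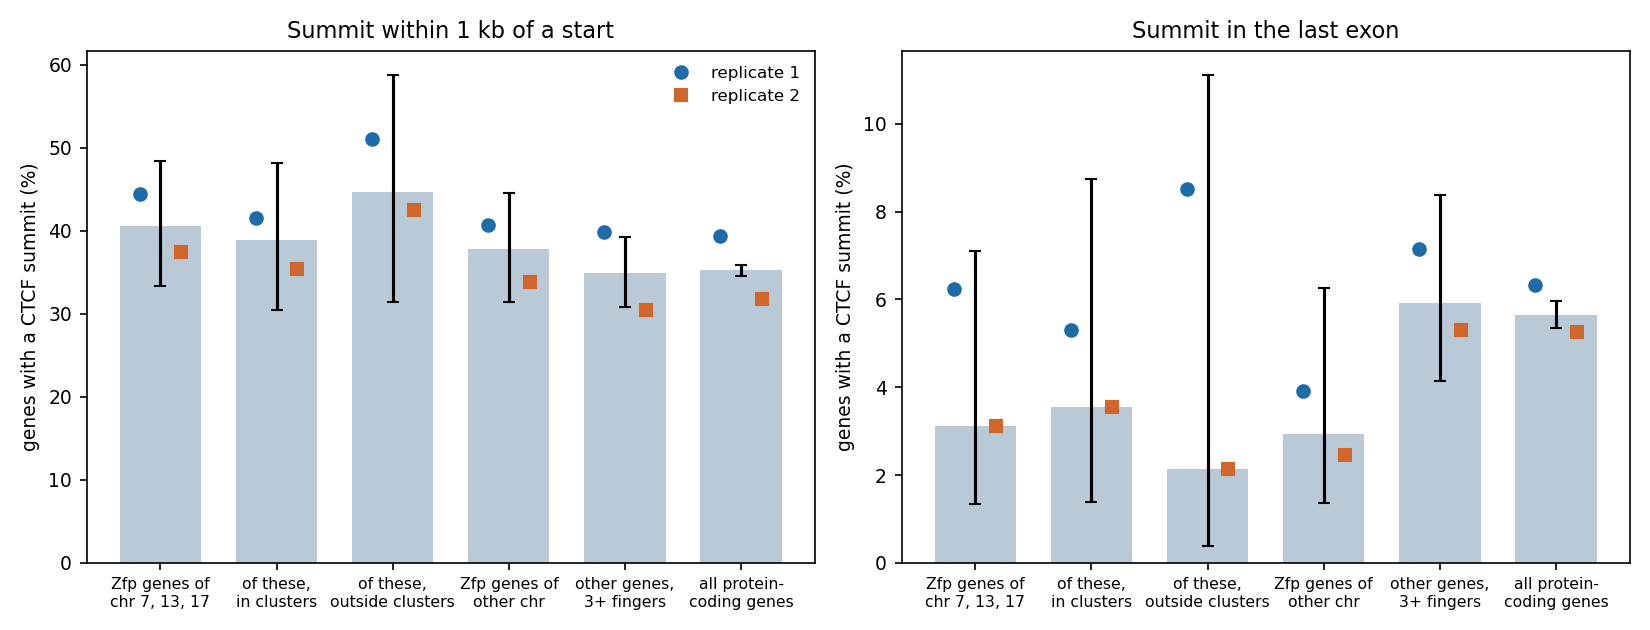
Percent of genes with a CTCF summit within 1 kb of a start (left) and in the last exon (right); bars are the optimal list with Wilson 95% intervals, and points are the strongest peaks of each replicate. At starts the 160 zinc finger genes reached 40.6% against 35.2% of all protein-coding genes, and in last exons 3.13% against 5.65%; the 2 panels have different vertical scales.

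The summits of these genes were concentrated just downstream of the 5′ end. From 0 to 500 bp downstream of the 5′ end, the zinc finger genes had 37 summits, or 23.1 per 100 genes, against 10.5 per 100 over all protein-coding genes. Replicate 1 gave 23.1 and replicate 2 gave 19.4 per 100 zinc finger genes, a mean of 21.3 ± 2.65 (SD, n = 2), and over all genes they gave 13.1 and 8.06, a mean of 10.6 ± 3.57. Both replicates of the zinc finger genes stood above both of all genes. The first 500 bp upstream showed no such excess: 8.75 summits per 100 zinc finger genes against 12.9 per 100 over all, with a replicate mean of 11.3 ± 1.77 (SD, n = 2) against 14.8 and 11.2 in the replicates over all genes. The downstream value was 23.0 per 100 for members in clusters and 23.4 for those outside. It was 16.7 per 100 in the Zfp genes of other chromosomes and 13.7 in other genes with 3 or more fingers. From 500 to 1000 bp downstream, only 1 summit remained among the 160 genes, 0.625 per 100 against 5.02 over all genes. The difference between the groups of genes was not tested.

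**Figure D2:**
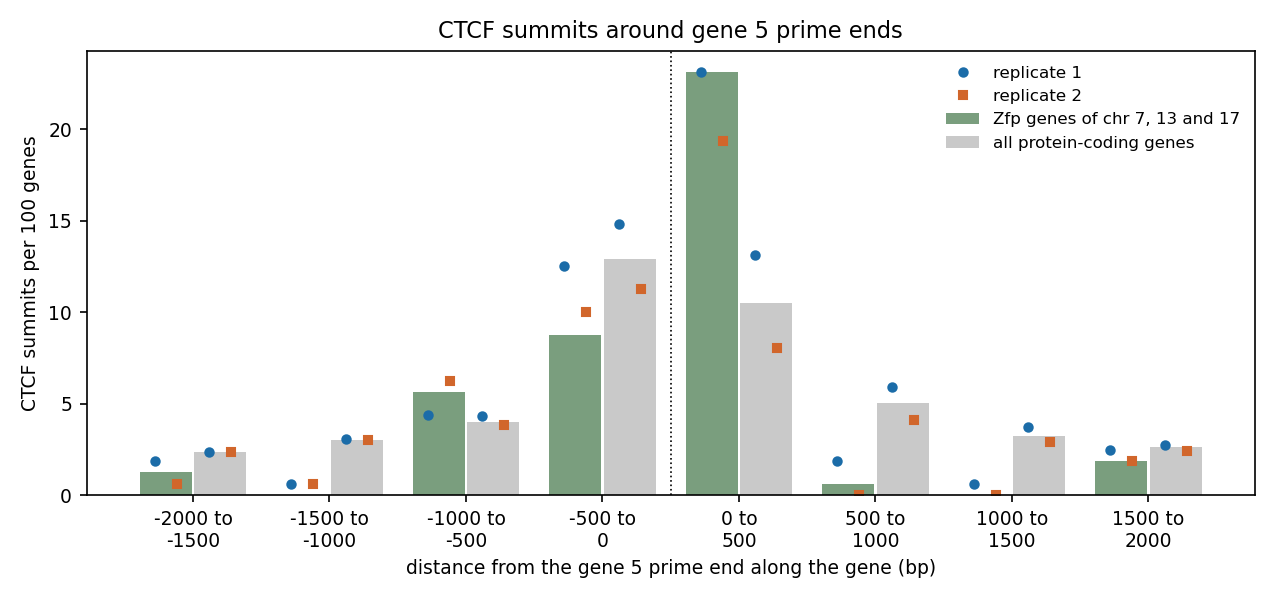
CTCF summits per 100 genes in 500 bp steps from the gene 5′ end, along the direction of the gene; bars are the optimal list and points are each replicate's strongest peaks. In the first 500 bp downstream the zinc finger genes reached 23.1 per 100 against 10.5 over all protein-coding genes.

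The 65 genes held 73 start summits, which were weaker than most of the list (28 exceeded its median) and mostly lacked the motif. Their median signal was 45.3, which is 0.666 times the median of all optimal summits, and the median over all protein-coding starts was 54.8. Starts of the Zfp genes of other chromosomes, with a median of 41.4, and of other genes with 3 or more fingers, with 43.3, were as low. The motif was found at 20 of the 73 (27.4%, interval 18.5 to 38.6), against 46.1% at all protein-coding starts and 36.3% at starts of the Zfp genes of other chromosomes. Summits with and without the motif lay at different distances. Taking the strongest summit of each gene, the 19 with a motif had a median distance of 424 bp from the nearest start, and 4 of them lay within 200 bp. The 46 without a motif had a median distance of 141.5 bp, and 27 lay within 200 bp. The motif pointed with the gene in 7 and against it in 12. Of the 65 genes, 8 had more than 1 start summit and 12 shared their strongest one with the start of another gene. The farthest summit inside the window was 994 bp from a start of Zfp952, and the nearest one outside it was 1115 bp from a start of Zfp473.

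The replicates ranked these 2 kinds of summit differently. Of the 47 start summits without a motif that had a peak in both replicates, 41 had the higher relative signal in replicate 1, with medians of 0.823 and 0.446. Of the 19 with a motif, 8 were higher in replicate 1 and 11 in replicate 2, with medians of 1.15 and 1.28. That is 87.2% and 42.1% higher in replicate 1, beside 87.4% and 81.5% over all protein-coding starts. Of the 20 start summits with a motif, 5 belonged to a repeated site on chromosome 17 whose values are given with that cluster. Of the 11 higher in replicate 2, those at Zfp677, Zfp54, Zfp51, Zfp52, Zfp983 and Zfp229 lay in that cluster. No start summit with a motif in that cluster was higher in replicate 1. The difference by motif was not tested. Both replicates' strongest peaks covered 55 of the 73 start summits (75.3%) and 151 of the 187 summits at starts, in last exons or between clustered genes (80.7%), against 76.7% of all optimal summits.

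The strongest start summit of all lay at Zfp523, the mouse counterpart of human ZNF76, a relative of ZNF143. Its peak, at chr17:28204370-28204692, had a signal of 474 and relative signals of 8.77 in replicate 1 and 5.42 in replicate 2 (7.10 ± 2.37, SD, n = 2). It was in an exon, 414 bp from an internal start and 27394 bp from the 5′ end of the gene. The next, at Zfp598, which encodes a ubiquitin ligase that senses collided ribosomes, was in an intron 6671 bp from the 5′ end. Its relative signals were 5.15 and 3.53 (4.34 ± 1.14), at chr17:24676231-24676487. These are the 2 of the 12 strongest whose start is not near the outer 5′ end.

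Summits without a motif stood near the 5′ end of the next genes in the ranking, all on chromosome 7. Zfp788, with 23 fingers, had relative signals of 5.59 and 2.75, 223 bp upstream. Zfp747 had 4.77 and 2.80, at 3 bp from its start. Zfp568, a KRAB repressor known to act on a placental promoter of Igf2, had 4.38 and 2.45, 221 bp upstream. In all of these replicate 1 was the higher. Zfp619 had 4.34 and 2.10, and Zfp764, a neighbour of Zfp747, had 3.30 and 2.87. On chromosome 13, Zfp595 had 3.26 and 2.36. Together these 6 summits without a motif lay within 250 bp of a start.

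The other 4 of the 12 carried the motif on the strand opposite to the gene, lay 440 bp or more upstream and were higher in replicate 2. Zfp74 on chromosome 7 had relative signals of 2.93 and 3.57, 857 bp upstream. Zfp54, Zfp51 and Zfp52 are in the same cluster on chromosome 17, with Zfp53 between Zfp51 and Zfp52. Zfp54 had 1.34 and 3.65, 440 bp upstream. Zfp51 had 0.942 and 3.57, 513 bp upstream. Zfp52 had 0.882 and 3.01, 920 bp upstream. For these 3 the replicates stood far apart, with means of 2.50 ± 1.63, 2.25 ± 1.86 and 1.94 ± 1.50 (SD, n = 2).

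**Figure D3:**
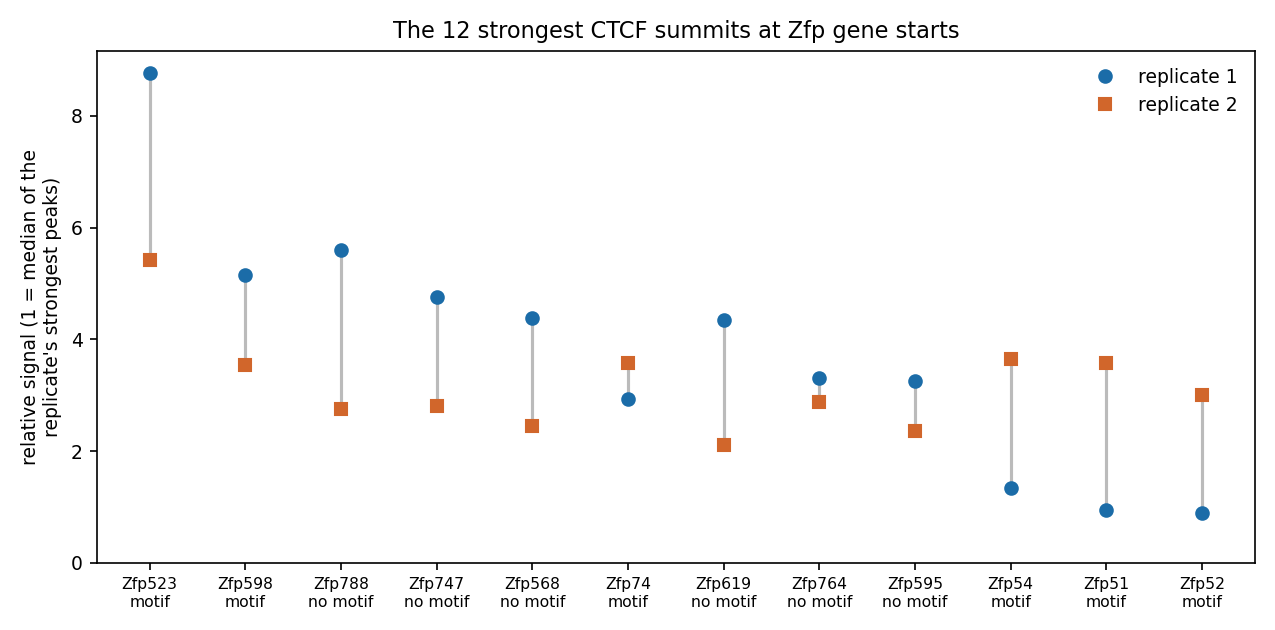
Relative signal of each replicate for the 12 zinc finger genes with the strongest start summits, in order of deposited signal; 1 is the median of that replicate's strongest peaks. Replicate 1 was higher in 8 genes, and replicate 2 in Zfp74, Zfp54, Zfp51 and Zfp52.

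Below the 12 of highest deposited signal, the start summits ran down to a signal of 7.37. Zfp60 had relative signals of 2.69 and 1.19, and Zfp444 had 2.32 and 1.59 (1.96 ± 0.520, SD, n = 2), about as much as Zfp52. Zfp346, which encodes a protein known to bind double-stranded RNA, had relative signals of 2.42 and 0.942. Its summit carried the motif and lay 44 bp from a start. Zfp36 had 0.581 in replicate 1 and no peak within 100 bp in replicate 2. A start summit was found in 5 of the 8 genes with under 3 fingers (interval 30.6% to 86.3%, which covers the 35.2% of all genes). They include Zfp36, Zfp598 and Zfp318, the last known from the splicing of immunoglobulin heavy chain transcripts. Genes with and without a start summit had similar numbers of fingers, with medians of 12 and 11. The GC content within 500 bp of the 5′ end had a median of 53.3% with a start summit and 50.9% without, and the number of CpG dinucleotides 41 and 32, with wide overlap.

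Near copies limit what short reads can place, so the share of 32-base words found only once in the genome was counted in the start windows. In the 107 zinc finger genes with at least 90% of such words, 53 had a start summit (49.5%, interval 40.2 to 58.9), against 39.5% of other genes of these chromosomes that passed the same mark. Replicate 1 gave 52.3% and replicate 2 gave 44.9% (48.6% ± 5.29, SD, n = 2) for the zinc finger genes, and 44.5% and 35.4% for the others. Below the mark, 12 of 53 had a start summit (22.6%, interval 13.5 to 35.5), against 13.5% of other genes. The zinc finger genes were higher than the others on both sides of the mark and in both replicates. Among the 9 genes with under 50% of words found once, only Zfp994 had a start summit. The lowest was Zfp97 with 0.203%, whose nearest summit was 220443 bp away. The part of read placement in these shares was not tested.

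Few of the last exons, where the fingers are encoded, held a CTCF summit; as a share of genes this was near all genes, and per kb there were fewer. All fingers were in the last exon in 139 of the 160 genes. A summit in the last exon was found in 5 genes, 3.13% (interval 1.34 to 7.11), against 5.65% of all protein-coding genes, 5.56% of other genes of the same chromosomes, 2.94% of the Zfp genes of other chromosomes and 5.92% of other genes with 3 or more fingers. The interval covers these values. Replicate 1 gave 6.25% (10 genes) and replicate 2 gave 3.13% (4.69% ± 2.21, SD, n = 2), against 6.33% and 5.26% over all genes. In replicate 1 the share was thus close to that of all genes. In the 109 genes whose last exon had at least 90% of words found once, 4 had a summit (3.67%), against 7.14% of other genes of these chromosomes, and below that mark 1 of 51 did (1.96%), against 1.93%. The median last exon of the zinc finger genes was 2284.5 bp long, against 999 bp over all genes. Per kb of last exon there were 0.0117 summits, against 0.0398 over all genes and 0.0115 in the Zfp genes of other chromosomes. Other genes with 3 or more fingers had 0.0267 per kb. The motif itself was also scarcer: matches with at most 1 mismatch numbered 0.0117 per kb in the last exons of the zinc finger genes, 0.0381 over all genes and 0.0338 in other genes with 3 or more fingers. A summit lay at 2 of the 5 such matches, and at 41.2% of those over all genes.

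The 5 last exon summits all carried a motif within 2 mismatches and were in both replicates' strongest peaks. Over the last exons of all protein-coding genes, 64.8% of summits carried a motif and 79.1% were in both replicates. The interval of the 5, 56.6% to 100%, covers both values. Of the 5, Zfp975 had the strongest, with relative signals of 1.18 and 0.923 (1.05 ± 0.179, SD, n = 2), in untranslated sequence. Only 29.4% of the words of that exon were found once in the genome. Zfp524 had 0.874 and 0.545, in coding sequence outside the fingers. Zfp444 had 0.838 and 0.334, and its summit alone lay in the finger array. The summits of Zfp318, with 0.349 and 0.549, and of Zfp871, with 0.397 and 0.406, were in untranslated sequence. On chromosome 13 none of the 31 last exons had a summit, which allows a share of up to 9.68% (3 counts of the total, counting error only).

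The genes formed 13 clusters that held 113 of them in 4.73 Mb, with 178 CTCF summits or 37.6 per Mb. The replicates gave 41.6 and 37.2 per Mb (39.4 ± 3.14, SD, n = 2), and the same chromosomes beyond the clusters and 50 kb on each side gave 21.9 (22.3 and 21.7 in the replicates). The clusters were therefore denser in summits than the rest in both replicates. They were also denser in protein-coding genes, at 36.8 per Mb against 10.8 outside, so both densities were higher there. Away from protein-coding starts, the clusters had 23.7 summits per Mb and the rest 17.5.

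Single clusters ran from 4.56 to 101 summits per Mb, and 5 of the 13 were below the rest of the chromosomes. These 5 held 39 summits, 16.1 per Mb, and 49 Zfp genes of the set, which made up 75.4% of their 65 protein-coding genes. The other 8 had 60.0 summits per Mb, and 58.7% of their protein-coding genes were of the set. Protein-coding genes numbered 26.9 per Mb in the 5 and 47.1 per Mb in the 8. In the 10 clusters where Zfp genes of the set made up most of the genes the density was 27.8 summits per Mb, with 30.8 protein-coding genes per Mb. In the other 3 it was 73.0 summits per Mb, with 58.4 genes per Mb. The part of gene density in these differences was not tested. The cluster densest in summits reached from Zfp628 to Zfp580 on chromosome 7, where 6 of 14 genes belong to the set. It had 101 summits per Mb in replicate 1 and 86.6 in replicate 2. The sparsest ran from Zfp141 to Zfp975, also on chromosome 7, with 1 summit in 219 kb, the one in the last exon of Zfp975. Its start windows had a median of 59.7% of words found once, the lowest of all clusters, and the part of that in the density was not tested. Counted within the cluster bounds, the longest stretches without a summit were 245 kb around Zfp995 to Zfp943 on chromosome 17 and 204 kb around Zfp455 to Zfp457 on chromosome 13.

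**Figure D4:**
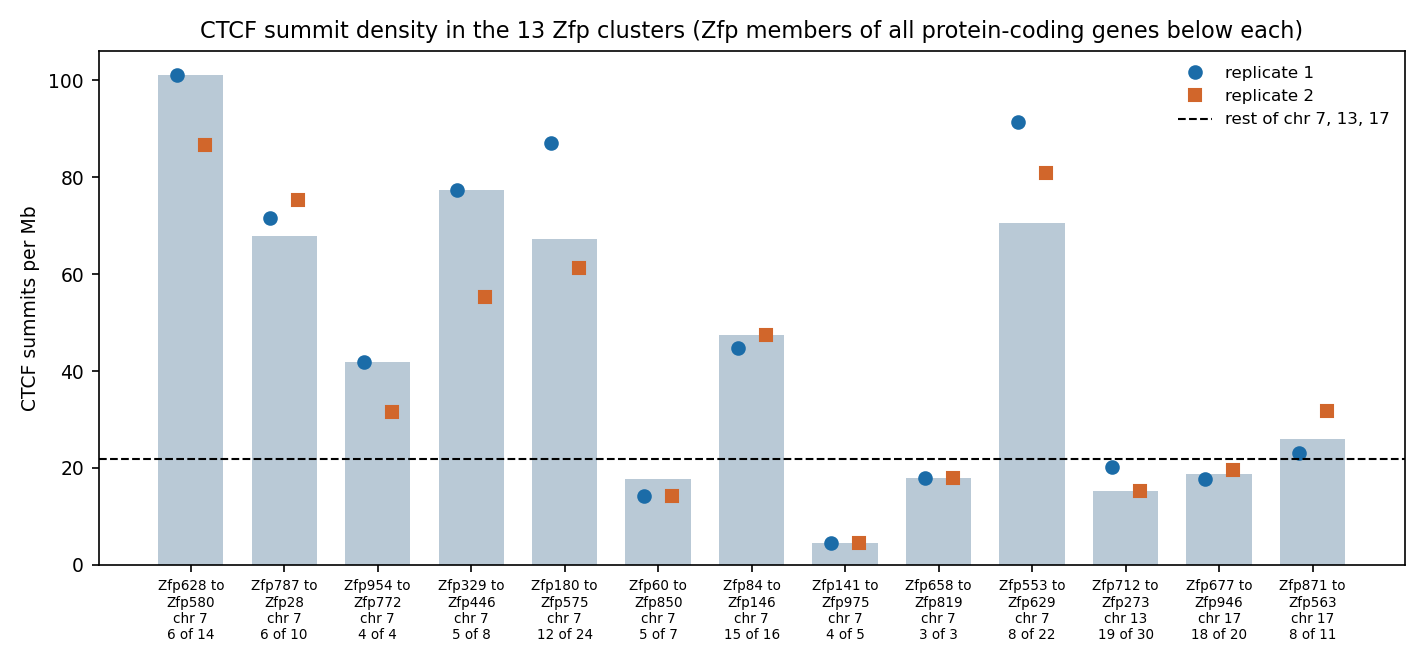
CTCF summits per Mb in each of the 13 clusters; bars are the optimal list, points each replicate's strongest peaks, and the dashed line the 21.9 per Mb of the same chromosomes beyond the clusters and their flanks. The clusters run from 4.56 per Mb (Zfp141 to Zfp975) to 101 per Mb (Zfp628 to Zfp580), and 5 of them lie below the line.

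Between neighbouring genes of a cluster, more CTCF summits were found where other genes intervened and the gaps were longer. Of 100 neighbouring pairs, 31 had a summit between them, outside both genes and more than 1 kb from their starts (interval 22.8 to 40.6), with 31 in replicate 1 and 32 in replicate 2. For 80 pairs no other protein-coding gene stood between. In these the share was 21.3% (17 pairs, interval 13.7 to 31.4) and a replicate mean of 21.3% ± 1.77 (SD, n = 2), against 32.7% of 2984 pairs of other neighbouring genes on the same chromosomes. Their summits per Mb of sequence between were 18.6 against 25.5. The median gaps were 13967 and 12542 bp, but the sequence between came to 1.34 Mb over the 80 pairs and to 81.6 Mb over the 2984, so the other genes had more of it for each pair. Of 19 pairs with other genes between them, 14 had a summit, at 56.7 per Mb, and these held 84 of the 109 summits. Their median gap was 68748 bp.

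The 109 summits between genes had a median signal of 72.1, and 65.1% carried the motif. By place, 17 lay at the start of another protein-coding gene, 36 in the body of one and 56 outside protein-coding genes. The motif was found in 29.4%, 83.3% and 64.3% of these. A single gap of 190339 bp, between Zfp94 and Zfp428, held 23 of the 109. Its strongest summit, in an intron of Irgc1 at chr7:24441834-24442132, had a signal of 446 and relative signals of 7.87 and 5.53 (6.70 ± 1.66, SD, n = 2). The strongest summit between Zfp628 and Zfp579, in an intron of Ssc5d, had relative signals of 6.51 and 5.46. The clusters Zfp141 to Zfp975 and Zfp658 to Zfp819 had no summit between their genes.

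Pooled over the clusters, the summits at the outer edges were stronger. Within 50 kb outside there were 56 summits, 43.1 per Mb (43.8 and 45.4 in the replicates), of which 83.9% carried the motif. Inside the clusters 58.4% of summits carried it, and in the rest of the chromosomes 70.0%. The median signal of the 56 was 114, against 62.4 inside and 69.6 in the rest of the chromosomes. The clusters added unequally to these pooled values. Their flanks ran from 0 summits per Mb beside Zfp954 to Zfp772 to 100 per Mb beside Zfp628 to Zfp580. A summit was found within 50 kb of 17 of the 26 cluster ends, and 5 clusters had one on both sides. In 16 of these 17 the strongest summit carried a motif, which pointed into the cluster at 10 ends and away at 6. The highest, in an intron of Ethe1, which encodes a mitochondrial sulfur dioxygenase, lay 13497 bp beyond Zfp575. It had a signal of 611 and relative signals of 11.1 and 7.46 (9.26 ± 2.56, SD, n = 2). The lowest of the strongest was 39.0, in an exon of Cd33 beyond Zfp658.

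The chromosome 17 cluster from Zfp677 to Zfp946 and the chromosome 13 cluster from Zfp712 to Zfp273 were the largest, and their summits differed in sequence. The first spanned 1073 kb with 18 Zfp genes of the set and had 20 summits, 16 with a motif, and 9 of its genes had a start summit. The second spanned 788 kb with 19 such genes and had 12 summits, none with a motif within 2 mismatches, and 6 of its genes had a start summit. Both had fewer summits per Mb, 18.7 and 15.2, than the rest of the chromosomes.

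**Figure D5:**
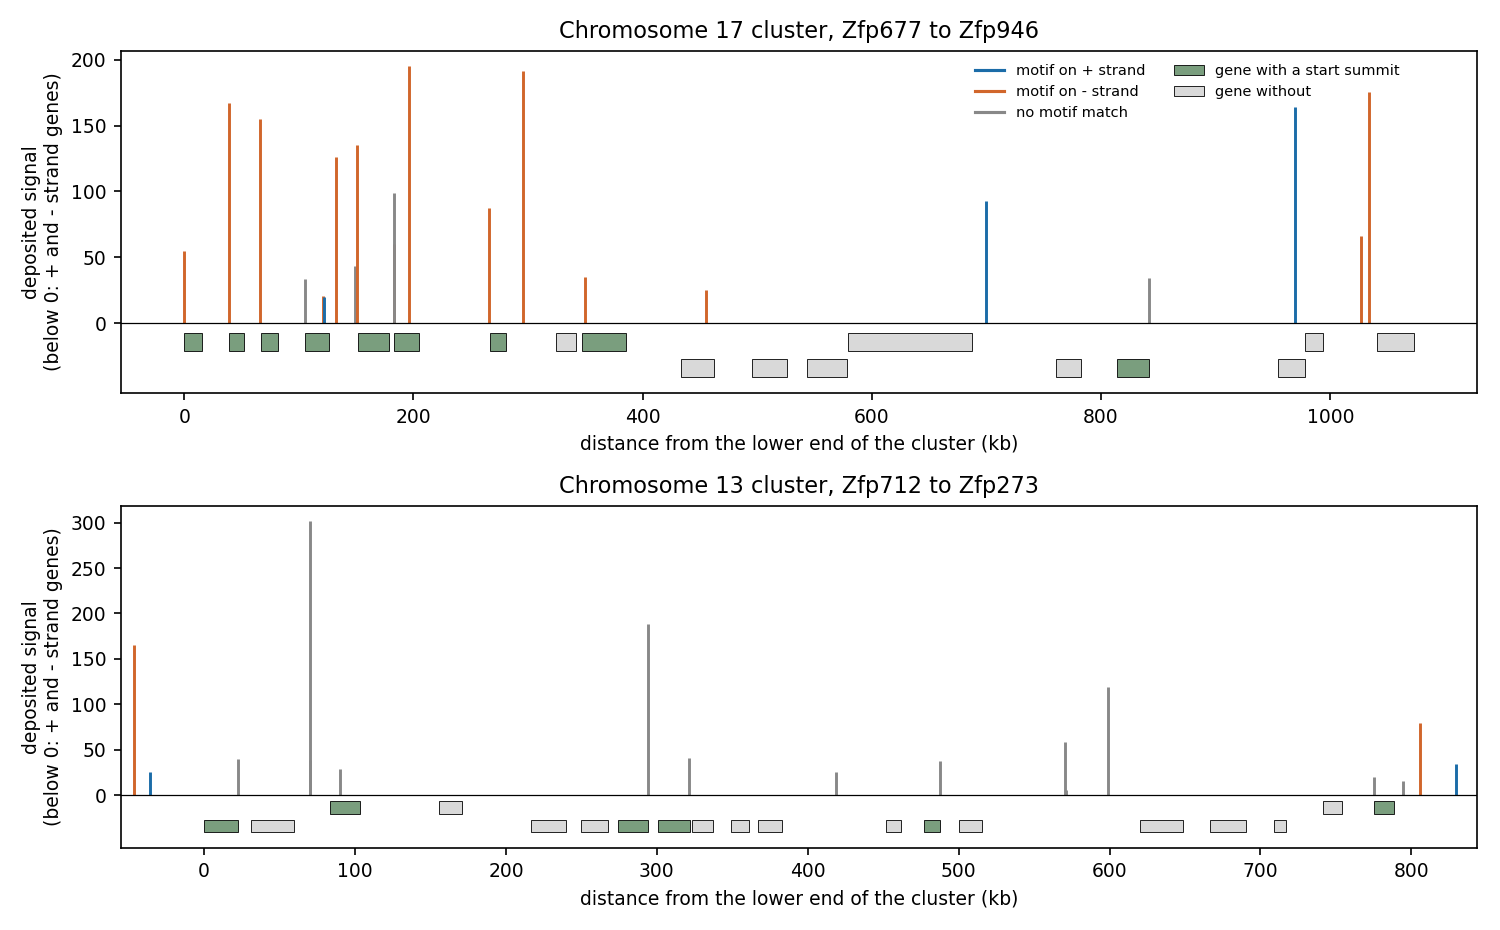
Maps of the 2 largest clusters, with distance from the lower end in kb; lines above 0 are CTCF summits with their deposited signal, coloured by the strand of the motif, and boxes below 0 are the Zfp genes of the set on the plus (upper row) and minus (lower row) strand, filled green where a start summit was found. Of the 20 summits within the chromosome 17 cluster 16 carry a motif, and of the 12 within the chromosome 13 cluster none does.

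On chromosome 17 many of the motifs lay in 1 repeated stretch. The comparison was made after the values were seen: around each of the 17 motif matches of the cluster and its first kb outside, the 16 bases beside the 14 matched ones were set against those of the summit in an intron of Zfp948. In 9 summits, that one included, at most 5 of the 16 differed. Among 36003 other optimal summits of the genome with a motif, 50 (0.139%) were as close. The stretches below, 5′ to 3′ on the motif strand of mm10 with the matched bases in capitals, show 7 of the 9 and the Zfp51 site, and the Zfp54 site is given above.
Zfp948 intron, chr17:21579674-21579703, minus strand: tactttcaCCACTAGATGGCGGtcttgtca
Zfp677 upstream, chr17:21383471-21383500, minus strand: tgctttctCCACTAGATGGTGGtcttgtca
Zfp53 to Zfp52, chr17:21515882-21515911, minus strand: tgatttccCCAATAGATGGCGGtcttgtca
Zfp52 upstream, chr17:21534600-21534629, minus strand: ttctttcaCCACTAGATGGCGGacatgtca
Zfp948 upstream, chr17:21566405-21566434, minus strand: tgctttcaCCACTAGATGTCATtttactaa
Zfp983 upstream, chr17:21650091-21650120, minus strand: tgctttcaCCACAAGAAGGCAGacttgcca
Zfp944 intron, chr17:22352995-22353024, plus strand: cactttcaCCACTAGATGGCAAgattgtgg
Zfp51 upstream, chr17:21449831-21449860, minus strand: tgatgttaCCACTAGATGGCGGtctgtcat
The summit between Zfp983 and Zfp760 had the same 30 bases as the one upstream of Zfp983. The Zfp51 stretch differed at 9 of the 16 bases in place, and at 6 of all 30 when insertions and deletions are allowed. By that second count the other sites of the 9 differed from the Zfp948 intron site at 3 to 8 bases. The Zfp51 stretch thus lay within their range, and the in-place rule alone left it out of the 9. None of the 9 sites had a base that the genome file marks as repeat. In all 9 the motif pointed against the nearest Zfp gene of the set, and 5 lay within 1 kb of its start.

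The signal at these sites was higher in replicate 2. Of the 9, 8 had a peak in both replicates, and replicate 2 was higher in each, with relative signals of 0.755 to 2.64 in replicate 1 (median 1.16) and 0.945 to 3.97 in replicate 2 (median 3.01). The Zfp948 intron site had 2.64 and 3.31 (2.98 ± 0.477, SD, n = 2). The site between Zfp983 and Zfp760 had 1.81 and 3.97 (2.89 ± 1.53), and its identical copy upstream of Zfp983 had 0.867 and 1.80 (1.33 ± 0.661). The Zfp677 site was the weakest, at 0.755 and 0.945. The site upstream of Zfp948 had 1.92 in replicate 2 and no peak within 100 bp in replicate 1. Over all optimal summits with a motif, replicate 1 was higher in 60.1%. Most motif summits of this cluster outside the 9 were also higher in replicate 2. The Zfp51 site had 0.942 and 3.57, and a summit between Zfp943 and Zfp947 had 0.602 and 2.09. A summit inside Zfp53, with 0.322 and 0.284, was the exception. Around each of the 9 summits, 93.5% or more of the words were found once in the genome. The part of the libraries in the difference was not tested.

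The chromosome 13 cluster is known to hold the Rsl genes, KRAB repressors of sex-specific liver genes. Its strongest summit lay between Zfp708 and Zfp759, in an intron of Rslcan18 and 140 bp upstream of Gm28557. It had a signal of 302 and relative signals of 3.92 and 5.10 (4.51 ± 0.830, SD, n = 2), and its best match to the motif had 3 mismatches. The start summit of Zfp595 followed with 3.26 and 2.36 and also 3 mismatches. Weaker ones lay at starts of Zfp759, with 0.255 and 0.570, of Zfp712, with 0.905 and 0.235, and of Zfp273, with 0.453 and 0.0963. Zfp729b, a gene of the cluster outside the set because its symbol ends in a letter, had 1.02 and 0.883, and Gm49345 had 2.18 and 1.41. The stretches at the last 2 and at Zfp759 are shown because they resemble each other, in the same layout, with capitals over the best match of 3 mismatches.
Zfp759, chr13:67128648-67128677, minus strand: ggacatgaCGTATAGGGGGCGGtagatgtc
Zfp729b, chr13:67609245-67609274, plus strand: ggacataaCATACAGAGGGCGCtacatgtc
Gm49345, chr13:67637330-67637359, plus strand: ggacataaCATACAGAGGGCGCtacaagtc
The Zfp729b and Gm49345 stretches differed at 1 of 30 bases, and the Zfp759 stretch differed from them at 6 and 7. Around the summits, 77.1% of words were found once in the genome at Zfp729b, 95.3% at Gm49345 and 100% at Zfp759. The part of read placement in their signals was not tested. The summits of all 3 lay 345 to 414 bp downstream of a start.

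Partners of KRAB repression were counted by the same rule. Of 27 listed genes, 14 had a start summit (51.9%, interval 34.0 to 69.3), against 35.2% of all protein-coding genes, which the interval only just leaves in. Trim28, which encodes the corepressor that KRAB domains recruit, had relative signals of 0.772 and 0.641 (0.706 ± 0.0928, SD, n = 2). The DNA methyltransferase genes Dnmt3a and Dnmt3b had the strongest, with 2.80 and 1.73 for Dnmt3a and 1.22 and 2.15 for Dnmt3b. Dnmt1, the maintenance methyltransferase, had 0.976 and 0.963. The histone deacetylase gene Hdac1 had 1.76 and 1.26, and Morc2a had 1.81 and 1.17. No start summit was found at Setdb1, which encodes the histone H3 lysine methyltransferase that TRIM28 recruits, nor at Cbx1, Hdac2, Atrx and 9 others of the list. The 9 include Mphosph8, Fam208a and Pphln1.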

How the data were processed

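CTCF ChIP-seq was made on 2 libraries of 1 biosample, and the deposited lists are peak tables on mm10, per the file headers and the labels. The optimal and conservative lists combine both replicates through the irreproducible discovery rate, per the deposited text files. The signal (column 7) and the summit offset (column 10, a position with no other unit) are the authors' values; the program that called the peaks was not stated in the sources used here, and read depth is unknown. Signals were compared only within a list.

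Summits were placed on GENCODE vM21 and GRCm38 with Python 3.11.15 and numpy 2.4.6. The last exon is that of the transcript with the longest coding sequence. Fingers were counted in translated coding sequences with Biopython 1.88, words with numba 0.67.0, edit distances with edlib 1.3.9.post1, and Wilson 95% intervals with scipy 1.17.1. Functions were tested on simulated data. No test between groups was possible. Named were the 12 strongest start summits, every last exon summit, and the strongest summits between and beside clustered genes. Of these, 1 is not reported here, and others are only counted. Values of other genes were chosen after they were seen. Members and lists were chosen with earlier results of these data known. The alternatives were other peak lists, stronger peaks, other windows, starts, last exons, cluster definitions, motif settings and summit distances, and genes with unique sequence. The pooled list was not used here.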

Additional observations from a re-analysis of the deposited data

How the results depend on the processing

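Of 47 alternatives, 25 kept each value within the SD between replicates, or within counting error where no such SD was made. Some of the other 22 stayed within the counting interval, such as the start share of 35.0% and the pair shares of 30% and 35.0%. The start share of 40.6% fell below that of all protein-coding genes with peaks above the median signal, at 16.9% against 18.0%, and was nearly level with it in a 2 kb window, at 43.1% against 42.2%. It was 35.0% with a 500 bp window or with 1 start per gene, against 28.7% and 27.7% of all genes, and 49.5% in genes with 90% or more unique words, against 39.5% of other such genes of the 3 chromosomes. Single replicates gave 37.5% to 44.4%. The last exon share was 0.625% with peaks above the median, against 3.21% of all protein-coding genes. It was 5.63% with the last exons of all transcripts, against 6.97%. Replicate 2 alone gave 3.13% and replicate 1 alone 6.25%, against 5.26% and 6.33%. Summits per Mb in clusters were 18.0 with peaks above the median, 33.1 with gaps of 100 kb, 32.3 with gaps of 500 kb, and 37.2 to 41.6 in single replicates, each above the rest of the chromosomes. The share of pairs with a summit was 30% in the conservative list, 21% with peaks above the median, 28.4% and 35.0% with gaps of 100 and 500 kb, and 31% to 32% in single replicates. The motif share at starts was 42.9% with peaks above the median, 18.0% with the 500 bp window, 13.7% with at most 1 mismatch and 60.3% with 3, and 21.7% to 30% in single replicates, below that of all protein-coding starts in each. Replicate support was 100% with peaks above the median, against 99.6% of all summits above the median. With the full replicate lists it was 93.0% against 93.5% of all summits, below instead of above. The causes were not tested. No paired analysis was possible because there is 1 group. Unknown read depth limits all counts: a site without a summit is one not called, and near-identical copies are hard to place.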
